A study of Mus musculus with 9 samples.

Results

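The members were 10 genes of the circadian clock, Arntl, Clock, Npas2, Per1, Per2, Per3, Cry1, Nr1d1, Dbp and Tef, chosen by symbol out of the 24453 genes of the deposited table, and each was found there once. They were read in RNA sequencing of 9 libraries, 3 each of quiescent hepatic stellate cells (HSCs) and of activated fibroblasts from 2 mouse models of liver fibrosis. HSCs came from untreated wild-type livers and were purified by density gradient. CCl4-fib came from Col1a2-GFP Tg mice, in which a collagen promoter drives green fluorescent protein, given carbon tetrachloride (CCl4) 2 times a week for 8 weeks. NASH-fib came from the same reporter crossed onto MC4R-KO mice, which lack the melanocortin receptor MC4R, after 20 weeks on a Western diet (WD) that began at 8 weeks of age. Both kinds of fibroblast were sorted as CD45- GFP+ cells, so the comparisons with HSCs also compare 2 ways of isolation, and genotype and diet cannot be told apart between NASH-fib and CCl4-fib. Each library was a pool of 3 to 5 mice on the C57BL/6J background. The hour of harvest is not given in the sources used here, and mice were fed ad libitum until they were killed.

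The clock is a feedback loop of transcription that runs in nearly every cell of the body. ARNTL (also called BMAL1) pairs with CLOCK, or with its relative NPAS2, binds E-boxes and turns on the Period and Cryptochrome genes, whose proteins then block the pair. NR1D1 (REV-ERBα), another product of the E-box, represses Arntl, and DBP and TEF carry the rhythm to further genes through D-boxes. In liver, transcripts of Arntl and Npas2 peak at about the opposite time of day from those of Nr1d1, Dbp and the Period genes, so a single harvest catches the 2 arms at unequal levels.

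Promoters are shown to place these elements, for Per3 and Nr1d1 as the members called, and for Per1 and Cry1 as examples of the E-box. Of the 10 members, 9 had at least 1 promoter window in the RefSeq table used (GRCm38.p6, 250 bases before to 50 after the start), and Per2 had none. The 250 bases before the start are printed for Per3 at chr4:151044666-151044915 (minus strand), for the upstream start of Per1 at chr11:69098699-69098948 (plus strand), for Cry1 at chr10:85185055-85185304 (minus strand) and for Nr1d1 at chr11:98775378-98775627 (minus strand). Capitals mark the D-box TTATGTAA in Per3, the E-box CACGTG in Per1 and Cry1, and in Per1 also TGACCT, the core of the element read by NR1D1.
Per3: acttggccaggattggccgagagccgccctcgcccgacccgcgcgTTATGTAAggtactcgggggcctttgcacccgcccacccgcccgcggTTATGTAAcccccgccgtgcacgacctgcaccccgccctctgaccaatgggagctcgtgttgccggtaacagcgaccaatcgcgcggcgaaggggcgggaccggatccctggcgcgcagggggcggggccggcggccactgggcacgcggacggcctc
Per1: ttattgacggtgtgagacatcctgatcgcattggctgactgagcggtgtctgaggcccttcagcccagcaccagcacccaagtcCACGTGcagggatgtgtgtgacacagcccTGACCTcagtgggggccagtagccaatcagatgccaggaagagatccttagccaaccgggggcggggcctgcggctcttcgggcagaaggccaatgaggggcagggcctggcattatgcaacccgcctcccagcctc
Cry1: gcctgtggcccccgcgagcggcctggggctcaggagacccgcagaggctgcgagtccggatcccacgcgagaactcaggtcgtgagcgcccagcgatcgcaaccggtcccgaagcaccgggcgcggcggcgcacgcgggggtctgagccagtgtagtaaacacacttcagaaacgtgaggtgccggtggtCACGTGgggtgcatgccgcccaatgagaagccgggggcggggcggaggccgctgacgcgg
Nr1d1: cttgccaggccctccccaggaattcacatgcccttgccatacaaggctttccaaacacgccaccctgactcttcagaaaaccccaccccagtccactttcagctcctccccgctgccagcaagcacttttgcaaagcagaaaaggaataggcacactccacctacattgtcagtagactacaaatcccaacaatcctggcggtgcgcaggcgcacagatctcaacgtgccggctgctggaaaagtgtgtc
The window of Per3 held 2 D-boxes, which began 205 and 158 bases before the start. D-box letters (TTATGTAA, TTACATAA or TTACGTAA, both strands) were present in 1.06% of the 32851 windows of the table. An E-box (CACGTG, the same on both strands) began 166 bases before the upstream start of Per1 and 60 before the start of Cry1. Both starts of Tef held one, against 7.15% of all windows. The window of the other start of Per1 (chr11:69099902-69100201, plus strand) held no E-box. The model of Per1 read here begins inside that window, at 69100158. The core AGGTCA or TGACCT was found in a window of Arntl, Clock and Per1, against 16.3% of all windows. In Nr1d1, Dbp and Npas2 none of these letters fell inside the window. A match is a description of letters only.

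The deposited values are reads on the exons of a gene, multiplied by 1 factor per library. The libraries held 3071070 to 5634273 reads on genes, and 1 read was worth 0.794 to 1.46 in value. The members rested on 5 to 720 reads per library. Differences were tested by limma on log2(value + 1) over the 13651 genes that passed a filter on low counts, in 1 fit of the 9 libraries, with Benjamini-Hochberg adjustment over all of them. Calls needed a log2 difference of 1 or more, up or down, with an adjusted p under 0.05. All 10 members passed the filter. Lrat, a marker of quiescent HSCs, was between 7070 and 14894 in HSCs and between 95.4 and 458 in the fibroblasts, and Col1a1 was between 452 and 968 in HSCs and between 3738 and 11375 in the fibroblasts. Alb, made by hepatocytes, was read in every library, at 9062 to 14161 in HSCs, 617 to 829 in CCl4-fib and 1787 to 14897 in NASH-fib, and Ptprc, which encodes the CD45 used in the sort, at 88.8 to 315, 8.73 to 25.5 and 62.3 to 319. HSC replicate 2 and NASH-fib replicate 1 stood apart from the rest by a lean to long genes. In them, genes over 6000 bases exceeded genes under 2000 bases, as a median deviation from the mean of all libraries, by 0.83 and 0.92 on the log2 scale, where the other libraries lay between -0.63 and 0.26. The sample labels carry prefixes that read like a month and a day, 10-31 for HSC 1, 11-3 for HSC 2, CCl4-fib 1 and NASH-fib 1, 11-4 for HSC 3 and CCl4-fib 2, and 11-7 for CCl4-fib 3, NASH-fib 2 and NASH-fib 3. What the prefix marks is not stated.

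Of the clock genes, Per3 was higher in both kinds of fibroblast than in HSCs, and Nr1d1 was lower in NASH-fib than in CCl4-fib. No other member was called in any comparison. Against HSCs, 1 of the 10 members was called higher and 0 lower in NASH-fib (background over all genes tested 8.23% higher and 4.3% lower), and likewise 1 higher and 0 lower in CCl4-fib (16.2% and 11.7%). Between the fibroblasts, 0 members were higher and 1 was lower in NASH-fib (4.97% and 5.66%). These shares lie near the background and are no result about the members as a group. At an unadjusted p under 0.05, limma gave 1, 5 and 3 members in the 3 comparisons, in either direction. Over all 13651 genes tested it gave 3057, 5457 and 3940. Of the counts of 0 from limma, DESeq2 gave 0 lower in NASH-fib against HSCs, 1 lower in CCl4-fib against HSCs and 1 higher in NASH-fib against CCl4-fib, the last 2 being Clock, and edgeR gave 0 in each. The median log2 difference of the members was 0.21 in NASH-fib against HSCs, 0.94 in CCl4-fib against HSCs and 0.08 in NASH-fib against CCl4-fib, beside -0.02, 0.18 and -0.11 over all genes tested. The comparisons share libraries, HSCs between the first 2 and NASH-fib or CCl4-fib with the third.

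**Figure D1:**
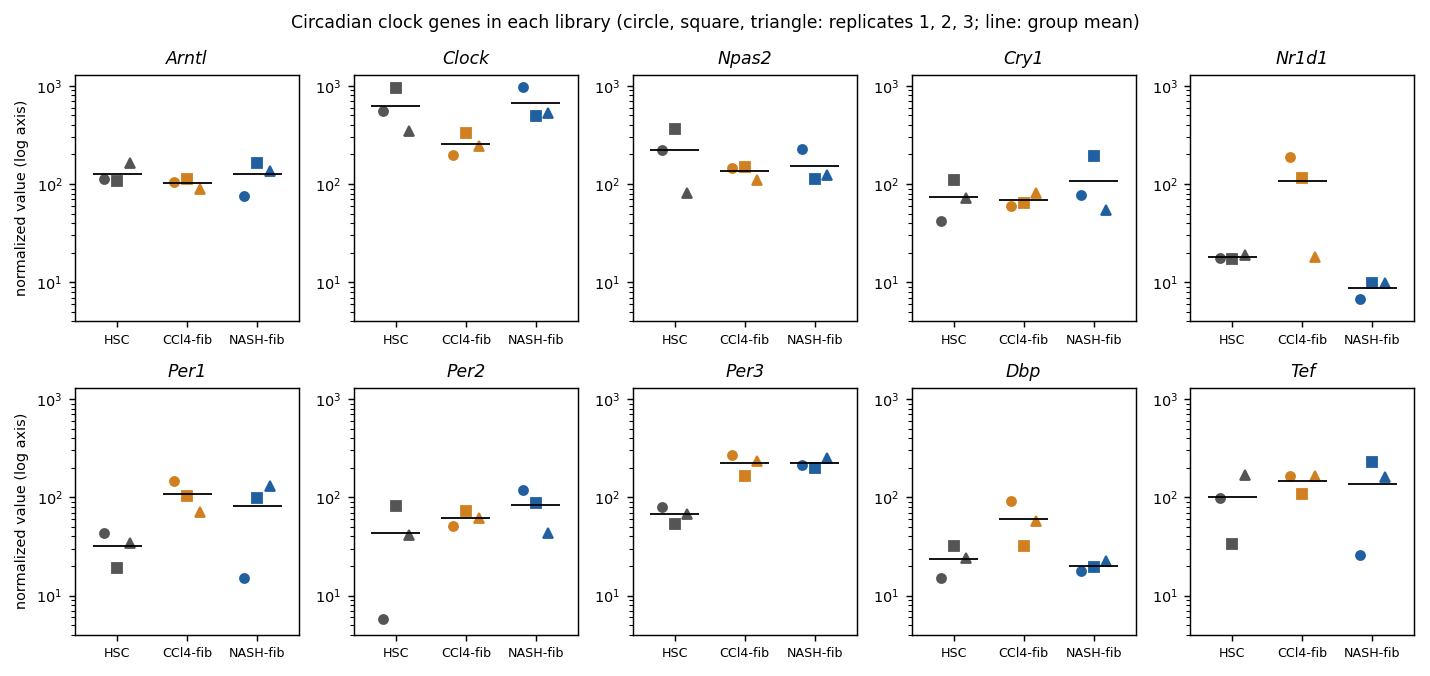
Normalized value of each clock gene in each library (log axis, 1 panel per gene), with circles, squares and triangles for replicates 1, 2 and 3 and a line at the group mean. Per3 lies above every HSC library in all 6 fibroblast libraries, and Nr1d1 spans 18.1 to 189 in CCl4-fib.

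Among the activators, Arntl, whose product pairs with CLOCK or NPAS2, was the steadiest across groups. It was read at 112, 108 and 164 in HSC replicates 1 to 3, at 106, 111 and 89.7 in CCl4-fib and at 74.8, 165 and 137 in NASH-fib. The 3 groups overlapped. The log2 difference from HSCs was -0.30 (SE 0.41) in CCl4-fib and -0.08 (SE 0.41, 95% interval -0.98 to 0.82) in NASH-fib, and neither was called (adjusted p = 0.606 and 0.96, limma).

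Clock, a histone acetyltransferase and the usual partner of ARNTL, was the highest member in value. HSC replicates 1 to 3 gave 556, 939 and 349, CCl4-fib 196, 327 and 243, and NASH-fib 979, 496 and 522. All 3 CCl4-fib libraries lay below every HSC and every NASH-fib library. The log2 difference was -1.18 (SE 0.44) for CCl4-fib against HSCs and 1.34 (SE 0.44) for NASH-fib against CCl4-fib, but neither passed (adjusted p = 0.0706 and 0.0793, limma). The 2 highest values of Clock, whose model spans 9579 bases, were those of HSC 2 and NASH-fib 1, the libraries with the lean to long genes. With the lean as a term of the fit, an alternative chosen after seeing the data, the differences were -0.23 and 0.40. The lean was lowest in all 3 CCl4-fib libraries, so the term and that group are not independent.

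Npas2, which can stand in for CLOCK, was read at 221, 361 and 81.3 in HSCs, at 146, 148 and 109 in CCl4-fib and at 226, 112 and 125 in NASH-fib. HSCs alone spanned all the fibroblast libraries, and no difference was called. In NASH-fib, as in HSCs, its highest library was the one with the lean to long genes.

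Of the repressors, Per3 carried the clearest difference. PER3 is the Period protein least needed for the loop itself, and it binds PER and CRY partners. Per3 (NM_011067, chr4:151003655-151044665, minus strand, mm10) was read at 80.7, 53.9 and 67.0 in HSCs, at 271, 164 and 236 in CCl4-fib and at 213, 199 and 254 in NASH-fib. The lowest fibroblast library, at 164, lay above the highest HSC library, at 80.7, and the 2 fibroblast groups interleaved. The gene rose 3.30-fold in NASH-fib (log2 difference 1.72, SE 0.36, limma with Benjamini-Hochberg adjusted p = 0.00907) and 3.27-fold in CCl4-fib (1.71, SE 0.36, adjusted p = 0.00552), on the log2(value + 1) scale. Between NASH-fib and CCl4-fib the difference was 0.01 (95% interval -0.78 to 0.81). In bulk RNA, fewer cells of a type and less RNA per cell cannot be told apart.

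The difference in Per3 was seen inside single label prefixes. Under 11-3, Per3 was 53.9 in HSC 2, 271 in CCl4-fib 1 and 213 in NASH-fib 1, and under 11-4 it was 67.0 in HSC 3 and 164 in CCl4-fib 2. With the prefix as a term of the fit, the call held in CCl4-fib (log2 difference 1.79, limma adjusted p = 0.0359) and was lost in NASH-fib (1.72, adjusted p = 0.165). Leaving out each of the 9 libraries in turn kept both calls, with differences of 1.57 to 1.86 in NASH-fib and 1.56 to 1.91 in CCl4-fib. Without HSC 2 and NASH-fib 1 together they were 1.60 and 1.56 and were still called. Of the 13 hepatocyte markers, none was at 0 in every library of a group, and 10 were called lower in CCl4-fib than in HSCs (background 11.7%). Their summed value was 26355 to 51007 in HSCs, 12083 to 15961 in CCl4-fib and 12837 to 36120 in NASH-fib. Most of the CCl4-fib sums was Trf alone, at 9622 to 12316, and without it (left out after seeing the values) the other 12 summed to 22854 to 42767, 2410 to 3645 and 7781 to 28279. The part of these markers in the level of Per3 was not tested. No other annotated gene shared exonic bases with Per3.

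Per1, which is also induced within minutes by stress and hormone signals, was read at 43.3, 18.9 and 34.7 in HSCs and at 147, 104 and 70.6 in CCl4-fib, and the groups did not overlap. NASH-fib gave 14.95, 98.9 and 130, so replicate 1 lay below all HSC libraries and the other two above them. The log2 difference was 1.71 (SE 0.75) in CCl4-fib and 0.91 (SE 0.75) in NASH-fib, and neither was called (adjusted p = 0.114 and 0.576, limma). In NASH-fib a single library decided this, and 1 of 21 alternatives called the difference. In CCl4-fib 4 of 21 alternatives called it, 1 of them with a library left out. Without NASH-fib replicate 1, which was also part of the shared estimate of spread, the difference was 1.86 in NASH-fib (adjusted p = 0.0373) and 1.71 in CCl4-fib (adjusted p = 0.0167), both called. With the lean to long genes as a term, the difference in CCl4-fib was 0.13.

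The immediate-early genes, a list of 15 that respond within minutes to stimuli, separated HSCs from fibroblasts as well, and Per1 is known to respond with them. Of these genes 12 were called higher in NASH-fib and 14 in CCl4-fib than in HSCs, beside 8.23% and 16.2% of all genes tested. Their summed value was 1822 to 2203 in HSCs, 17618 to 22862 in CCl4-fib and 11515 to 18549 in NASH-fib. The library with the least Per1, NASH-fib 1, had a sum of 11515, the lowest of the fibroblasts and still above every HSC library. That low sum lay largely in Btg2, at 1860 in NASH-fib 1 beside 8598 and 9124 in NASH-fib 2 and 3. Fos ran the other way, at 3400 beside 2730 and 2225, so the list as a whole was not lowest there. The part of these signals in the level of Per1 was not tested.

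Per2, a core repressor, was read at 5.84, 81.6 and 41.8 in HSCs, at 50.8, 73.1 and 61.1 in CCl4-fib and at 120, 88.2 and 43.2 in NASH-fib. HSC replicate 1, with 5 reads, lay far below the others and widened the spread in HSCs to an SD of 1.86 on the log2 scale. The log2 difference was 1.43 (SE 0.81) in NASH-fib and 1.10 (SE 0.81) in CCl4-fib, not called (adjusted p = 0.358 and 0.332, limma), and 0.39 and 0.06 without that library.

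Cry1, the strongest repressor of the ARNTL complex, was read at 42.1, 109 and 71.7 in HSCs, at 59.5, 64.6 and 80.1 in CCl4-fib and at 77.5, 192 and 54.1 in NASH-fib. The groups overlapped, and no difference was called.

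Nr1d1 was the member that varied most between the 2 fibrosis models. The gene (NM_145434, chr11:98767932-98775377, minus strand, mm10) encodes the nuclear receptor that represses Arntl, and it shares exonic bases with Thra on the other strand. It was read at 17.5, 17.5 and 19.1 in HSCs, at 189, 114 and 18.1 in CCl4-fib and at 6.80, 9.80 and 9.83 in NASH-fib. CCl4-fib replicates 1 and 2 stood far above all other libraries, CCl4-fib replicate 3 was level with HSCs, and all NASH-fib libraries lay below every other library. The NASH-fib values rested on 5, 11 and 10 reads and those of CCl4-fib on 238, 134 and 19.

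In NASH-fib, Nr1d1 was 7.71-fold lower than in CCl4-fib (log2 difference -2.95, SE 0.77, limma with Benjamini-Hochberg adjusted p = 0.0365). Against HSCs it was 1.97 (SE 0.77) in CCl4-fib and -0.97 (SE 0.77) in NASH-fib, not called (adjusted p = 0.0793 and 0.552). The call between the fibroblasts was lost with 6 of the 9 libraries left out (HSC 1, CCl4-fib 1, CCl4-fib 2 and each NASH-fib library), with adjusted p from 0.0163 to 0.149 and differences from -3.93 to -2.27 over all 9. Without CCl4-fib 3, the difference from HSCs was 2.96 and was called (adjusted p = 0.00559). The call was also lost with the label prefix as a term (-2.47, adjusted p = 0.127), with the lean as a term (-2.58, adjusted p = 0.113), with HSC 2 and NASH-fib 1 left out together (-2.79, adjusted p = 0.0575) and with only the 2 groups in the fit (adjusted p = 0.0578). A filter on an average value of at least 100 removed the gene.

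Within the prefix 11-7, Nr1d1 was 18.1 in CCl4-fib 3, beside 9.80 in NASH-fib 2 and 9.83 in NASH-fib 3. Within 11-3 it was 17.5 in HSC 2, 189 in CCl4-fib 1 and 6.80 in NASH-fib 1. The direction between the models was the same in both prefixes, and the sizes were unlike. Reads of either strand were counted, and 263 of the 3077 exonic bases of Nr1d1 overlap Thra. Thra was 109 to 133 in HSCs, 140 to 193 in CCl4-fib and 102 to 202 in NASH-fib, a ratio of highest to lowest of 1.98 over the 9 libraries beside 27.8 for Nr1d1.

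**Figure D2:**
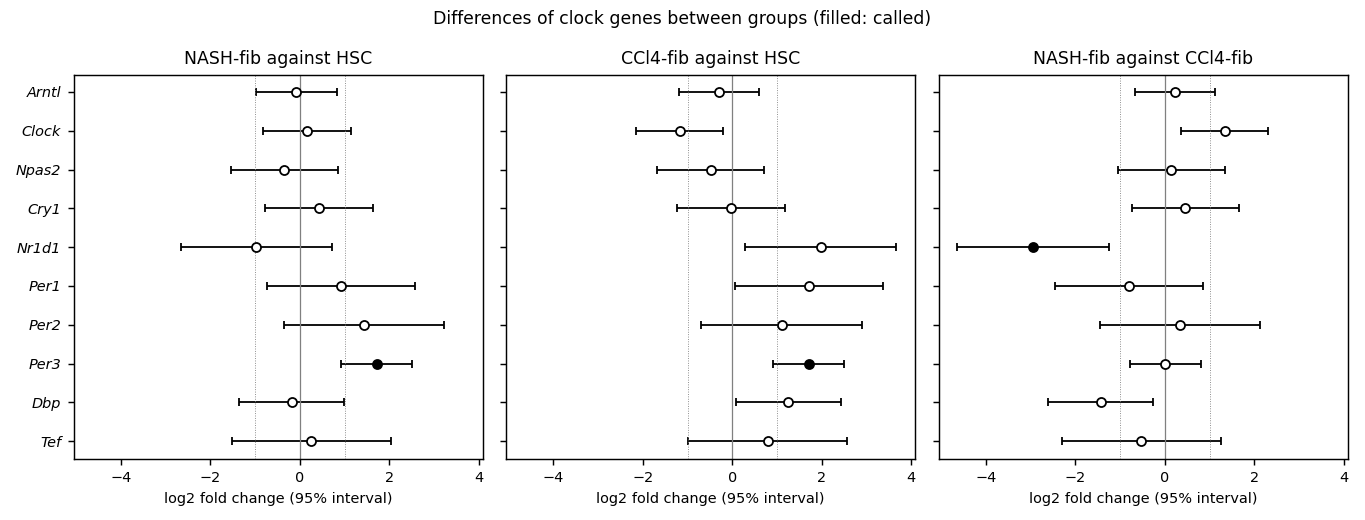
Log2 difference of each clock gene in the 3 comparisons, with 95% intervals from limma, dotted lines at 1 and -1 and filled points for called differences. Per3 is filled in both comparisons with HSCs and Nr1d1 in NASH-fib against CCl4-fib, at -2.95.

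Of the D-box factors, Dbp, whose transcript has among the widest daily swings in liver, was read at 15.2, 32.0 and 23.9 in HSCs, at 92.1, 32.3 and 57.2 in CCl4-fib and at 17.7, 19.6 and 22.6 in NASH-fib. The CCl4-fib libraries lay above all others, but replicate 2 exceeded the highest HSC library by less than 1 read. The log2 difference was 1.25 (SE 0.53) for CCl4-fib against HSCs and -1.44 (SE 0.53) for NASH-fib against CCl4-fib, not called (adjusted p = 0.105 and 0.108, limma). Of the 2993 exonic bases of Dbp, 539 overlap Sphk2, a lipid kinase gene on the other strand. Sphk2 was 30.4 to 72.8 in HSCs, 74.4 to 179 in CCl4-fib and 23.1 to 41.9 in NASH-fib, so it ran with Dbp, and reads of the 2 genes cannot be told apart over the shared bases.

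Tef was read at 98.2, 33.5 and 167 in HSCs, at 164, 107 and 165 in CCl4-fib and at 25.8, 226 and 161 in NASH-fib. Its 2 lowest libraries were HSC 2 and NASH-fib 1, those with the lean to long genes, although its own model has 4145 bases. No difference was called.

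Counted by groups that do not overlap, Per3 was higher and Nr1d1 lower in NASH-fib than in HSCs, 1 member each way, where 12.7% and 11.6% of all genes tested were. In CCl4-fib against HSCs, 3 members were higher (Per1, Per3 and Dbp) and 1 lower (Clock), beside 27.8% and 20.9%. In NASH-fib against CCl4-fib, 1 was higher (Clock) and 2 lower (Nr1d1 and Dbp), beside 17.1% and 22% of all genes. The 14 differences between groups not given above, those of Npas2, Cry1 and Tef and the remaining ones of Arntl, Clock, Per1, Per2 and Dbp, lay between -0.80 and 0.79 on the log2 scale and were not called.

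The spread between libraries of a group was no larger for the clock genes than for others. In HSCs the median SD on the log2 scale was 0.64 for the members beside 0.66 for all genes, with 0.36 beside 0.37 for CCl4-fib and 0.57 beside 0.71 for NASH-fib. Single members departed from this. The SD of Nr1d1 in CCl4-fib, 1.74, exceeded that of 97.4% of genes, and that of Per2 in HSCs exceeded 94.5%. By contrast, the SD of Per3 in NASH-fib was 0.18, above 5.71% of genes.

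Per kilobase, the order of the members changed between groups. In HSCs, Clock (64.2 ± 31.3 per kilobase, SD, n = 3), Npas2 (53.2 ± 33.7) and Arntl (44.3 ± 10.8) led, and did not differ beyond their spread. Per2 (7.41 ± 6.52), Per1 (6.99 ± 2.67) and Nr1d1 (6.55 ± 0.34) were last, also within their spread. In CCl4-fib the first 5 were Nr1d1 (38.8 ± 31.1), Per3 (37.4 ± 9.09), Dbp (36.2 ± 17.9), Arntl (35.4 ± 3.90) and Tef (35.04 ± 7.96), which overlapped, and Per2 (10.6 ± 1.92) was last. In NASH-fib, Clock (69.5 ± 28.3) and Arntl (43.4 ± 16.0) led again. Per3 (37.1 ± 4.76), Npas2 (37.1 ± 15.0) and Cry1 (36.0 ± 24.7) followed, and these overlapped with each other and with Arntl. Dbp (11.9 ± 1.49) and Nr1d1 (3.20 ± 0.63) closed the order, a step larger than their spread.

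The balance of the 2 arms was taken in each library as the mean log2(value + 1) of Arntl, Clock, Npas2 and Cry1 minus that of Per1, Per2, Per3, Nr1d1, Dbp and Tef, without a test. Cry1 encodes a repressor but was set with the activators, so the value is not a balance of activators against repressors. It came to 2.38, 2.84 and 1.59 in HSCs, to 2.48, 1.62 and 1.25 in NASH-fib, and to -0.21, 0.62 and 0.64 in CCl4-fib. The CCl4-fib libraries were the 3 lowest, and HSCs and NASH-fib overlapped. Within the prefix 11-3 it was 2.84 in HSC 2, 2.48 in NASH-fib 1 and -0.21 in CCl4-fib 1, within 11-4 it was 1.59 in HSC 3 and 0.62 in CCl4-fib 2, and within 11-7 it was 0.64 in CCl4-fib 3 beside 1.62 and 1.25 in NASH-fib. Over the 9 libraries it also ran with the lean to long genes, which was -0.63, -0.47 and -0.49 in CCl4-fib, and the 2 libraries with the strongest lean had the 2 highest balances. The part of the lean in the balance was not tested, and the hour of harvest cannot be compared with it.

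**Figure D3:**
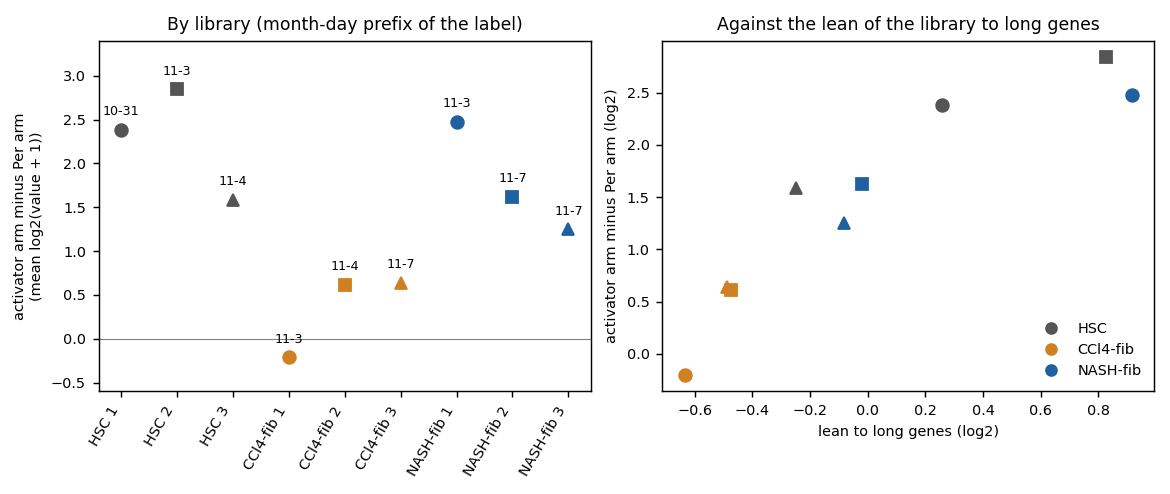
Mean log2(value + 1) of Arntl, Clock, Npas2 and Cry1 minus that of the other 6 members, by library with the label prefix above each point (left) and against the lean of the library to long genes (right). Colours are groups and symbols replicates 1, 2 and 3 as circle, square and triangle. The axis label counts Cry1, a repressor, in the activator arm. The CCl4-fib libraries, at -0.21, 0.62 and 0.64, are lowest on both axes of the right panel.

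The rest of the clock was followed in a list of 16 further clock genes, of which 15 were tested. NASH-fib had 3 called up and 0 down against HSCs (background 8.23% and 4.3%), and CCl4-fib had 3 up and 0 down (16.2% and 11.7%). In the direction down, edgeR called 0 in both and DESeq2 called 0 in NASH-fib and 1 in CCl4-fib. An unadjusted limma p under 0.05, in either direction, was found for 5 genes in each comparison. Between the fibroblasts limma, edgeR and DESeq2 called 0 (background 4.97% and 5.66%), with 2 at an unadjusted limma p under 0.05. Over all 13651 genes tested, 3057, 5457 and 3940 had such a p in the 3 comparisons. The median log2 difference of the 15 clock genes was 0.72, 0.90 and 0.02 in these comparisons, beside -0.02, 0.18 and -0.11 over all genes tested. Ciart, which represses ARNTL-CLOCK, did not pass the filter and was at most 19.1.

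Bhlhe41 (DEC2), which competes for E-boxes, was 68.2 to 186 in HSCs and 481 to 1482 in the fibroblasts, and rose in NASH-fib by 2.67 (SE 0.51, limma adjusted p = 0.00526) and in CCl4-fib by 2.74 (SE 0.51, adjusted p = 0.00266) on the log2 scale. The call in NASH-fib was lost in 1 of 22 alternatives. Bhlhe40 (DEC1), its paralog, rose in CCl4-fib by 2.35 (SE 0.42, limma adjusted p = 0.0021). In NASH-fib Bhlhe40 was 1.11 higher (SE 0.42), not called (limma adjusted p = 0.127), at 347 to 360 beside 91.2 to 232 in HSCs. Nfil3, which represses through D-boxes, gave 14.0, 17.5 and 21.5 for HSCs, then 95.3, 196 and 252 for CCl4-fib, then 61.2, 118 and 67.8 for NASH-fib, without overlap between HSCs and the fibroblasts. It rose by 3.20 in CCl4-fib (SE 0.49, limma adjusted p = 0.000971) and by 2.12 in NASH-fib (SE 0.49, adjusted p = 0.016), a call lost in 3 of 21 alternatives.

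Hlf, the third activator of the D-box family beside Dbp and Tef, gave 14.0, 87.4 and 22.7 for HSCs, then 155, 43.4 and 57.2 for CCl4-fib, then 222, 200 and 152 for NASH-fib. It rose in NASH-fib by 2.59 on the log2 scale (SE 0.68, limma adjusted p = 0.0306), and this call was lost in 9 of 22 alternatives.

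**Figure D4:**
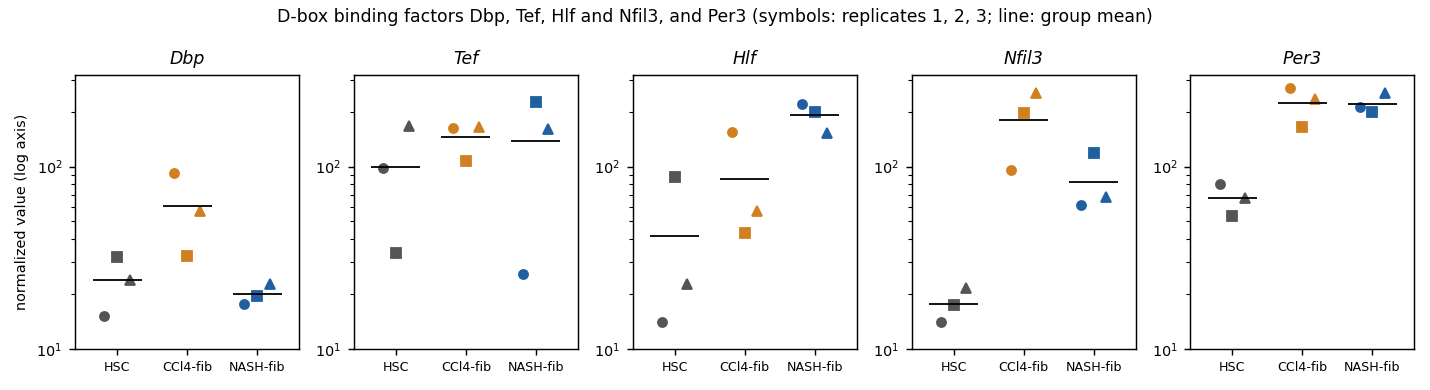
Normalized values (log axis) of the D-box activators Dbp, Tef and Hlf, the D-box repressor Nfil3, and Per3, by group, with circles, squares and triangles for replicates 1, 2 and 3 and a line at the group mean. Nfil3 and Per3 are higher in all 6 fibroblast libraries than in every HSC library, and Hlf overlaps between NASH-fib (152 to 222) and CCl4-fib (43.4 to 155).

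A list of 13 genes known as clock outputs was read in the same way, against the backgrounds of calls given above. NASH-fib had 1 called up and 1 down against HSCs, CCl4-fib had 5 up and 3 down against HSCs, and NASH-fib had 2 up and 1 down against CCl4-fib. Usp2, a deubiquitinase under E-box control, rose in NASH-fib by 2.65 (SE 0.42, limma adjusted p = 0.00181), from 23.3 to 43.0 in HSCs to 173 to 323. Its rise in CCl4-fib was also called, at 2.37 (SE 0.42, limma adjusted p = 0.0021), with values of 143 to 215. Rgs16, a regulator of G protein signals, was 0, 0 and 5.98 in HSCs and 62.7, 79.1 and 63.9 in CCl4-fib, and rose by 5.18 (SE 0.78, limma adjusted p = 0.000869). The genes that fell in CCl4-fib were Ppara, Cyp7a1 and Gys2. Among those that rose there against HSCs were Alas1 and Por, by 2.44 and 2.26 on the log2 scale (limma adjusted p = 0.0167 and 0.0352). Cyp7a1, the rate-limiting enzyme of bile acid synthesis, was at 0 in all CCl4-fib libraries, which is at least 29.9-fold lower than in HSCs against a floor of 3 reads per library, and at least 15.2-fold lower without HSC 3. In NASH-fib it fell by 4.03 on the log2 scale (SE 0.94, limma adjusted p = 0.0166), a call lost in 2 of 21 alternatives. Gys2, the liver glycogen synthase, had at most 1 read in a CCl4-fib library, at least 35.8-fold lower than in HSCs and at least 74.0-fold lower than in NASH-fib, bounds that fell to 23.7 without HSC 2 and 47.4 without NASH-fib 1. Between the fibroblasts, Ppara, a receptor for fatty acids, was higher in NASH-fib by 2.89 (SE 0.66, limma adjusted p = 0.0241), a call lost in 6 of 22 alternatives. Alas1, the first enzyme of heme synthesis, fell by 2.36 (SE 0.64, limma adjusted p = 0.0414), a call lost in 10 of 22 alternatives. Of the 13 hepatocyte markers given beside Per3, 10 were also called lower in CCl4-fib than in HSCs. Between the fibroblasts, 7 of them were called higher in NASH-fib than in CCl4-fib (background 4.97%). The part of these markers in the output genes was not tested in either comparison.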

How the data were processed

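Of the RNA sequencing series, 9 libraries in 3 labelled groups of 3 were used. Each library is a pool of mice, and no source used here says whether the pools of a group shared animals, so p-values measure only the spread between these samples, which may be technical. The authors deposited a normalized signal for each gene. RNA had been amplified with the SMARTer kit, sequenced from a single end and aligned to mm10 with STAR, and HOMER had counted both strands over RefSeq exons, capping reads at 3 for a position and merging the transcripts of a gene. Per the file headers, a normalization for DESeq2 covered 10 libraries, of which the tenth is not analysed here. The deposited values summed to 4.47e+06 in each of the 9 libraries, so the libraries were scaled to equal totals. Divided by what 1 read is worth, they gave whole reads (tolerance 0.006) for 100% of the values. No library was a copy of another (chi-square per gene 19.1 or more between pairs).

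The members, the gene lists and the tests were chosen with earlier results of these data known, and the lists of other clock, output, immediate-early, glucocorticoid response and marker genes were written from general knowledge. Genes were kept by filterByExpr of edgeR (4.0.16, minimum count 10) on the recovered reads, and limma (3.58.1, trend, R 4.3.3) was fitted to log2(value + 1). All members are named. Of the other clock genes, those called are named, and of the outputs, immediate-early and glucocorticoid genes the 3 with the largest change (for outputs, of those called) in each comparison. Por is named in addition. A further 2 clock genes were left out of the list and are not reported here. Motifs were matched to RefSeq promoter windows of GRCm38.p6. Shared exonic bases came from the GENCODE annotation of the same assembly. Alternatives were DESeq2 (1.42.0), edgeR's quasi-likelihood test, upper-quartile and log2 CPM scales, filters, pseudocounts of 0.5 and 5, fits on 2 groups, with a replicate block or the label prefix, and each library left out. Leaving out HSC 2 and NASH-fib 1 together, and the lean to long genes as a term, were added after seeing the data. Same-numbered replicates did not deviate together.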

Additional observations from a re-analysis of the deposited data

Results flagged for a closer look

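Nr1d1 was flagged because its difference between the 2 models was called. The differences from HSCs ran in opposite directions in the 2 models. They were -0.97 in NASH-fib and 1.97 in CCl4-fib on the log2 scale, neither called alone. The one in NASH-fib ran from -1.05 to -0.08 over 21 alternatives. The change in NASH-fib minus that in CCl4-fib was -2.95 (limma adjusted p = 0.0365). The comparison with the same HSC libraries cancels out of this value. CCl4-fib replicates 1 and 2 (189 and 114) carried it, replicate 3 (18.1) lay level with HSCs, and replicate 1 and replicate 2 each ended the call when left out. The 2 libraries have the label prefixes 11-3 and 11-4 and replicate 3 has 11-7. No cause was tested.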

How the results depend on the processing

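The call of Per3 against HSCs held in 22 of 22 alternatives in CCl4-fib and in 21 of 22 in NASH-fib, and no called member changed sign in any of the 22. Nr1d1 was called in 10 of the 21 alternatives that kept it. Members called higher in NASH-fib against HSCs numbered 1, and 0 with the label prefix as a term (1 to 2 with a library left out). In CCl4-fib against HSCs 1 was called higher, 3 by DESeq2 and 2 by edgeR, with only 2 groups or without HSC 2 and NASH-fib 1 together (1 to 2 with a library left out), and 0 lower, 1 by DESeq2 (0 to 1 with a library left out). In NASH-fib against CCl4-fib 0 were called higher, 1 by DESeq2, and 1 lower, 0 with the average filter, only 2 groups, the replicate block, the label prefix, without HSC 2 and NASH-fib 1 together, or the lean as a term (0 to 1 with a library left out). The sign of Per3 between the fibroblasts turned to -0.077 with the label prefix (lowest -0.19 and highest 0.17 with a library left out, -0.09 without NASH-fib replicate 3). Arntl in NASH-fib against HSCs turned to 0.015 with DESeq2, 0.011 with edgeR and 0.15 without HSC 2 and NASH-fib 1 together, and ran from -0.31 to 0.25 with a library left out. Mt2 between the fibroblasts turned to 0.16 with the lean as a term. Of the 27 differences of members that were not called, 16 changed sign in at least 1 alternative. Same-numbered libraries correlated between -0.47 and 0.51 in their deviations, so the numbers mark no pairing. The replicate block left Per3 called (adjusted p = 0.0189 in NASH-fib and 0.0112 in CCl4-fib, limma) and not Nr1d1 (adjusted p = 0.0605). The cause of these changes was not tested.

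Over all genes, the calls depended on the setting too. Calls in NASH-fib against HSCs ran from 537 to 1587 higher (1124 in the fit reported) and 119 to 1090 lower (587), in CCl4-fib against HSCs from 1078 to 2947 higher (2209) and 906 to 2125 lower (1592), and in NASH-fib against CCl4-fib from 113 to 1518 higher (678) and 72 to 1161 lower (773). On the recovered reads, edgeR called 1095 higher and 481 lower, 1876 and 1716, and 802 and 563 in these comparisons, and DESeq2 gave 1518 and 1161 in the last. The median of all genes in CCl4-fib against HSCs was 0.18 in the fit reported and 0.00 by edgeR, and in NASH-fib against CCl4-fib -0.11 and 0.14. Depth limits Nr1d1 and Dbp most, with 5 to 11 and 13 to 23 reads in the NASH-fib libraries.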

Other observations

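Glucocorticoids are among the signals that set liver clocks and induce Per1. Of 8 glucocorticoid response genes, NASH-fib had 0 called up and 1 down against HSCs, CCl4-fib had 1 up and 1 down against HSCs, and NASH-fib had 1 up and 0 down against CCl4-fib (limma). The backgrounds of calls are those given for the members. At an unadjusted limma p under 0.05 there were 4, 3 and 3 in either direction, beside 3057, 5457 and 3940 of all 13651 genes tested. For the 2 counts of 0 DESeq2 gave 1 up against HSCs and 0 down against CCl4-fib, and edgeR gave 0 and 0. Sgk1, a kinase of salt handling, fell in NASH-fib by 2.28 (SE 0.43, limma adjusted p = 0.00498) and in CCl4-fib by 1.68 (SE 0.43, adjusted p = 0.015) on the log2 scale, calls lost in 1 and 5 of 22 alternatives. Tsc22d3 (GILZ) was 1.76 higher in NASH-fib and 1.59 higher in CCl4-fib, not called (limma adjusted p = 0.107 and 0.0838). Mt2, a metallothionein, rose in CCl4-fib by 3.00 (SE 0.90, limma adjusted p = 0.032), a call lost in 8 of 22 alternatives, and was -2.17 between the fibroblasts (adjusted p = 0.144). Errfi1, an inhibitor of the EGF receptor, was higher in NASH-fib than in CCl4-fib by 2.05 (SE 0.47, limma adjusted p = 0.0243), a call lost in 5 of 22 alternatives, and 1.42 against HSCs (adjusted p = 0.0799), while Fkbp5 was -1.34 between the fibroblasts (adjusted p = 0.0828).

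Among the immediate-early genes, Fos rose by 4.85 in NASH-fib and 5.60 in CCl4-fib on the log2 scale, and Nr4a1 by 4.89 and 5.40. Btg2 rose by 4.20 in NASH-fib and 3.98 in CCl4-fib. Ier3 rose by 4.44 in CCl4-fib, and was 1.07 higher in NASH-fib, not called (limma adjusted p = 0.153). Between the fibroblasts, 3 of 15 were called lower in NASH-fib (background 5.66%), at -3.37 for Ier3, -2.06 for Zfp36 and -1.85 for Ier2. The last 2 calls were lost in 4 and 7 of 22 alternatives.

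Markers of other cells were at unlike levels in the groups. The summed value of 6 sinusoidal endothelial markers was 4798 to 10832 in HSCs, 161 to 194 in CCl4-fib and 861 to 2932 in NASH-fib. That of 7 macrophage markers was 2682 to 10270, 233 to 359 and 555 to 2154. Neutrophil markers reached 1005, 48.6 and 5131 at most, lymphocyte markers 49.0, 11.5 and 189, and cholangiocyte markers 69.9, 3223 and 1116. Smooth muscle markers reached 132, 13028 and 18941, mesothelial markers 404, 9996 and 11881, and proliferation markers 222, 587 and 336. The 7 activated fibroblast markers summed to 6261 to 12011 in HSCs, 45780 to 52913 in CCl4-fib and 23531 to 28038 in NASH-fib, and the 7 stellate cell markers to 32314 to 39932, 2995 to 6985 and 2341 to 5912. Their part in the levels of the clock genes was not tested.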
